A study of Mus musculus with 6 samples.

Results

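A set of 10 genes that mark endothelial tip cells, Apln, Aplnr, Esm1, Cxcr4, Kcne3, Adm, Ramp3, Unc5b, Pdgfb and Inhbb, was followed in endothelial cells sorted from B16F0 tumours. They were taken by symbol, and all 10 of 10 were present among the 24421 gene symbols of the deposited counts. B16F0 is a transplantable mouse melanoma line, and tumours were grown under the skin of C57BL/6 mice for 17 days. The study compared 3 libraries from mice given the antibody 15C4 with 3 from mice given control IgG, each injected at 50 mg/kg every 3 days. 15C4 is a function-blocking antibody against LRG1, a secreted glycoprotein that acts on vessels, and the comparison asks what the antibody does to gene expression in the tumour's endothelial cells. The mice of both groups carried the same tumour, and the labels give no genotype, age or sex. Whether each library stands for its own animal is not stated, and every p-value therefore reads the spread between libraries, part of which may be technical. The labels also do not name the surface markers used for the sort.

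When a vessel sprouts, a single tip cell leads and stalk cells follow behind it. VEGF induces the tip cell programme and DLL4-Notch signalling from the tip cell restrains it in the neighbouring cells. Tip cells are known for secreted factors such as apelin, adrenomedullin, PDGF-B and endocan, and for guidance receptors such as UNC5B and CXCR4. Many of these genes also respond to hypoxia and can be made by other cells, tumour cells among them.

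The libraries held between 5175600 and 19572202 counts, and values are CPM, counts of a gene per 1000000 counts of its library, unless stated otherwise. The library IgG 3 stood apart in its endothelial content: Cdh5, which encodes VE-cadherin (GRCm38 chromosome 8, 104101625 to 104144511), was at 46.3 CPM there and between 505 and 1240 CPM in the others. The sum of 22 pan-endothelial genes was 277 CPM in IgG 3, with the other 5 libraries at 1979 to 3620 CPM. Fewer endothelial cells and less RNA per endothelial cell cannot be told apart in these bulk libraries. Melanocyte transcripts, led by Dct, summed to between 24115 and 29294 CPM in every library. This was well above the pan-endothelial sum, although the labels name a sorted endothelial population. Such sums do not measure shares of cells, and the part of tumour cell RNA in the member levels was not tested. Over all genes, 15C4 3 lay apart from the other 5 libraries (first principal component, 45.7% of variance). It also had the fewest genes with at least 1 count, 10413, against 11752 to 13707 in the others. Each member was therefore also set against Cdh5 in the same library, as counts per 1000 Cdh5 counts.

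Per kilobase of annotated exon, Esm1 and Kcne3 were the most abundant members. Mean levels over the 6 libraries were 155 CPM per kb for Esm1, 125 for Kcne3, 60.0 for Apln, 54.7 for Cxcr4, 50.3 for Adm and 43.0 for Inhbb. Pdgfb followed at 7.62 CPM per kb, Unc5b at 3.91, Aplnr at 3.81 and Ramp3 at 0.158. Kcne3 exceeded Apln, and Inhbb exceeded Pdgfb, in 6 of 6 libraries. The other neighbours in this order were not separated in every library: Esm1 exceeded Kcne3 in 4 of 6, Apln exceeded Cxcr4 in 4, Cxcr4 exceeded Adm in 3 and Adm exceeded Inhbb in 3. Pdgfb exceeded Unc5b in 5 and Unc5b exceeded Aplnr in 3, while Aplnr exceeded Ramp3 in 5.

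The make-up of the programme differed from library to library. Esm1 made up 43.2% of the summed per-length level of the 10 genes in 15C4 2 and 45.5% in IgG 1, but 10.9% in IgG 3 and 16.5% in 15C4 1. Kcne3 was the leading member in 15C4 1, at 39.7%, and in IgG 3, at 42.6%. In IgG 2 Cxcr4 led with 22.4%, just above Esm1 with 21.9%. Inhbb reached 20.8% in 15C4 1 and stayed between 4.02% and 9.60% in the others.

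The 250 bases before the RefSeq start of the 5 most abundant members are shown, since several of these genes are known to respond to hypoxia. The sequences are from RefSeq on GRCm38.p6, which held 9 start sites for 8 of the 10 members, and are written 5′ to 3′ on the gene's strand. Capitals mark the core of the hypoxia response element, searched as ACGTG or GCGTG on both strands.
Esm1, chr13:113209409-113209658, plus strand: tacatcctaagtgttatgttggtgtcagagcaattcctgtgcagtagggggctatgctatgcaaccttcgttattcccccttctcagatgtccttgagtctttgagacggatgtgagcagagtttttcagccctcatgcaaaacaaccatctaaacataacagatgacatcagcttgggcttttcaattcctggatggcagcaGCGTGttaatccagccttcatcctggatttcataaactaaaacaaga
Kcne3, chr7:100178433-100178682, plus strand: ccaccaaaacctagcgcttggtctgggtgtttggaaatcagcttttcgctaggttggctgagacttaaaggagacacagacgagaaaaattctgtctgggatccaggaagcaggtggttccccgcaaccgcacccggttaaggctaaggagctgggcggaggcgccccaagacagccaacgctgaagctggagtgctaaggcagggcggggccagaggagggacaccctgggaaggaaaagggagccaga
Apln, chrX:48034854-48035103, minus strand: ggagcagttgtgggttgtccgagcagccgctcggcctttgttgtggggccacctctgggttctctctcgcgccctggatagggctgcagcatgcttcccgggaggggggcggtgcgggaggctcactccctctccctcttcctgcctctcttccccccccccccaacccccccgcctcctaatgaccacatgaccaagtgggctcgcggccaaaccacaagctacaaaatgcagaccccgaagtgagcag
Cxcr4, chr1:128592300-128592549, minus strand: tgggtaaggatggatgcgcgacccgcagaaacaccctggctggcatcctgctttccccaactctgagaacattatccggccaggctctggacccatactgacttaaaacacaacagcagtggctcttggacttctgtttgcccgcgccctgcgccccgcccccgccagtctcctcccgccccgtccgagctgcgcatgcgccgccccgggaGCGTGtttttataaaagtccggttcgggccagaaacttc
Adm, chr7:110627407-110627656, plus strand: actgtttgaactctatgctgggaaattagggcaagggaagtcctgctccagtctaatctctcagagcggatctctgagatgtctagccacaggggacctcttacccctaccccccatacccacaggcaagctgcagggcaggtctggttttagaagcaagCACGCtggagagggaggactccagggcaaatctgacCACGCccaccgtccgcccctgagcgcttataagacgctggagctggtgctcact
The letters of the core occur once in the windows of Esm1 and Cxcr4, starting 47 and 39 bases before the start, and in 2 places in that of Adm, 90 and 54 bases before it. The Kcne3 window shown and the Apln window do not hold these letters. The other RefSeq start of Kcne3, not shown, has the core 140 bases before it. Of all 32851 promoter windows of this length, 38.6% hold the core. Counted by gene rather than by window, 6 of the 8 members with an entry do, Kcne3 only through the start not shown. The RBPJ letters TGGGAA, which Notch targets can carry, occur on either strand in the windows shown for Kcne3 and Adm and in 21.6% of all windows.

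**Figure D1:**
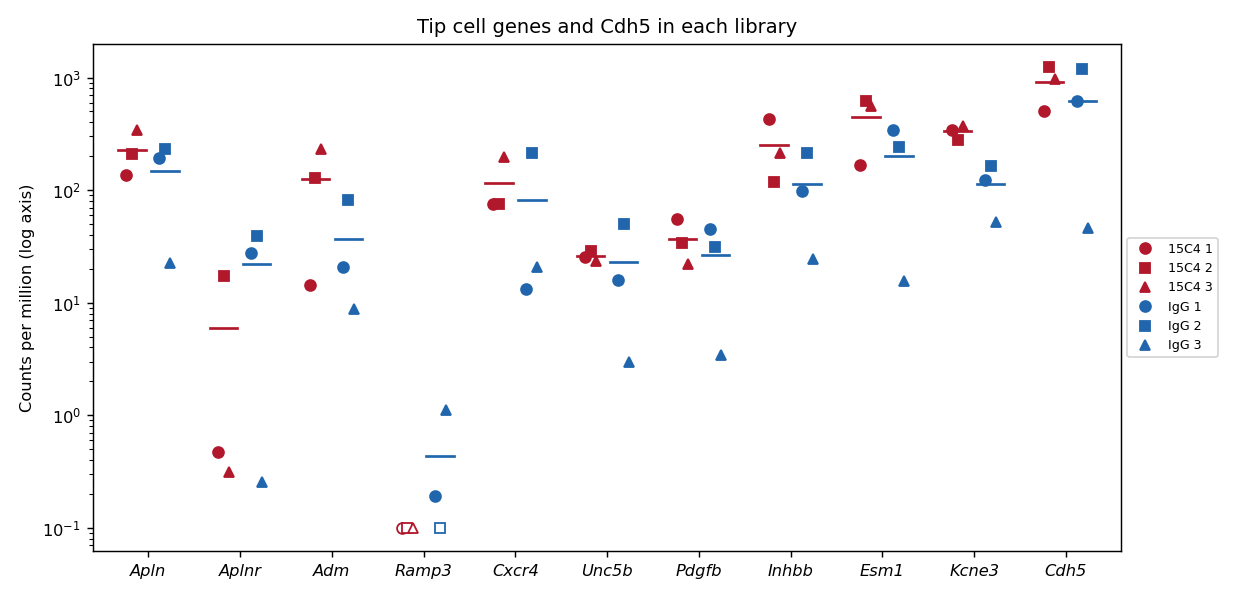
CPM on a log axis for the 10 tip cell genes and Cdh5, with 15C4 libraries in red and IgG libraries in blue, 1 symbol shape per replicate number. Horizontal bars are group means of 3 libraries, and open symbols at 0.1 CPM stand for 0 counts. The Kcne3 values of the 15C4 libraries all lie above those of the IgG libraries, and IgG 3 is the lowest library for 8 of the 9 tested members.

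Apelin and its receptor followed different patterns. Apln (chromosome X, 48025146 to 48034853), which encodes the peptide ligand, was at 137, 207 and 343 CPM in 15C4 1, 2 and 3 and at 192, 233 and 22.4 CPM in IgG 1, 2 and 3. The groups overlapped, and IgG 3 was lower than the rest, as it was for Cdh5. Aplnr (chromosome 2, 85136225 to 85139923), the G protein-coupled receptor of apelin, was at 0.476, 17.1 and 0.313 CPM in 15C4 and at 27.4, 38.9 and 0.257 CPM in IgG. It thus held 335, 142 and 375 counts in 15C4 2, IgG 1 and IgG 2, and 2 to 4 counts in each of the other libraries. The libraries with little Aplnr came from both groups, and 15C4 1 and 15C4 3 were among them although their Cdh5 levels were 505 and 970 CPM. Apela, the other ligand of this receptor, had 0 counts in all 6 libraries.

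Relative to Cdh5, Apln varied little. It stood at 271, 167 and 353 counts per 1000 Cdh5 counts in 15C4 and at 307, 194 and 483 in IgG, and the difference of the log2 ratios was -0.28 (two-sided exact permutation p = 0.6, n = 3 each, where 0.1 is the smallest possible). The Aplnr ratio was 0.943, 13.8 and 0.322 in 15C4 and 44.0, 32.4 and 5.56 in IgG. Every ratio of 15C4 1 and 3 was below those of the IgG libraries, but 15C4 2 was above IgG 3, so the groups overlapped (difference of the log2 ratios -3.54, two-sided exact permutation p = 0.2).

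Adrenomedullin is a vasoactive peptide that signals through the receptor CALCRL together with RAMP2 or RAMP3. Adm (chromosome 7, 110627661 to 110629820) was at 14.4, 129 and 234 CPM in 15C4 and at 20.7, 81.7 and 8.74 CPM in IgG. It was low in 15C4 1, IgG 1 and IgG 3, and the groups overlapped. Its ratio was 28.5, 104 and 241 counts per 1000 Cdh5 counts in 15C4 and 33.2, 68.1 and 189 in IgG, so that IgG 3 was among the high libraries on this scale. The difference of the log2 ratios was 0.25 (two-sided exact permutation p = 0.8, n = 3 each).

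Ramp3 (chromosome 11, 6658521 to 6677475) was close to absent. It had 0 counts in all 15C4 libraries and in IgG 2, 1 count in IgG 1 and 13 in IgG 3. A count of 0 allows up to 0.357, 0.153 and 0.469 CPM in 15C4 1, 2 and 3 and up to 0.311 CPM in IgG 2, for counting error only. Over the pooled counts of each group, against a floor of 3 counts, Ramp3 was at least 6.05-fold lower in 15C4. IgG 3 held 13 of the 14 counts, and without it 1 count remained in IgG, so no fold can be given. Ramp2 carried the receptor family in these libraries, at 86.8, 86.2 and 21.6 CPM in 15C4 and 66.7, 89.5 and 6.68 CPM in IgG. Calcrl was at 22.3, 33.0 and 1.88 CPM in 15C4 and 26.7, 109 and 2.06 CPM in IgG. Both were low in 15C4 3, the library with the highest Adm level, and in IgG 3. Ramp1 had a level of 1.16 CPM in IgG 1 and 0 counts elsewhere, and the related ligand genes Adm2, Calca and Calcb had 0 counts throughout.

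Cxcr4 (chromosome 1, 128588199 to 128592293), the receptor of the chemokine CXCL12, was at 75.6, 76.0 and 195 CPM in 15C4 and at 13.1, 213 and 20.9 CPM in IgG. It was the 1 tested member whose lowest library was not IgG 3 but IgG 1. Relative to Cdh5 it was highest in IgG 3, at 452 per 1000, and lowest in IgG 1, at 21.1, with 177 in IgG 2 and 150, 61.3 and 201 in 15C4. The log2 ratios of the groups differed by 0.040 (two-sided exact permutation p = 1, n = 3 each). Leukocytes also carry CXCR4. The sum of 13 T and NK cell markers was 624 CPM in IgG 1, where Cxcr4 was lowest. It was 221 CPM in 15C4 1 and 5.26 to 21.7 CPM elsewhere. Ccl5 led the list by mean level, and in 15C4 1 it held 1794 counts beside 11 of Gzma and 16 of Nkg7. In IgG 1 Gzma, Ccl5 and Nkg7 held 923, 641 and 546 counts. Cd4 had 0 counts in all libraries, and the part of leukocyte RNA in the Cxcr4 level was not tested. Cxcl12 was at 66.1, 79.2 and 261 CPM in 15C4 and 190, 3.11 and 0 CPM in IgG, and IgG 2 thus held the highest Cxcr4 beside almost no ligand transcript. Ackr3, the atypical receptor that scavenges CXCL12, lay between 4.90 and 35.2 CPM.

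Unc5b (chromosome 10, 60762593 to 60831581), a netrin receptor that also binds ROBO4, was at 25.6, 28.5 and 23.5 CPM in 15C4 and at 15.8, 50.3 and 3.00 CPM in IgG. The 15C4 libraries lay close together and inside the range of the IgG libraries. Its ratio was 50.7, 23.0 and 24.2 per 1000 Cdh5 counts in 15C4 and 25.4, 41.9 and 64.8 in IgG (difference of the log2 ratios -0.44, two-sided exact permutation p = 0.5, n = 3 each). Robo4, an endothelial guidance receptor, was at 40.1, 101 and 47.1 CPM in 15C4 and 72.3, 100.2 and 7.37 CPM in IgG, lowest in the same library as Cdh5. Among the netrin family, Ntn1 did not exceed 5.36 CPM and Ntn4 did not exceed 0.119 CPM. Ntn3 was at 0.714, 0 and 0 CPM in 15C4 and 1.55, 7.26 and 3.34 CPM in IgG. Its groups did not overlap and it did not pass the test (-4.06 on the log2 scale, SE 2.09). These levels rest on 6, 0 and 0 counts in 15C4 and 8, 70 and 39 in IgG. The nearest libraries, 15C4 1 and IgG 1, thus differ by few counts. Ntn3 was named for the smallest unadjusted p among the tested partners, and 9.52% of all tested genes did not overlap.

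Pdgfb (chromosome 15, 79995874 to 80014977), which recruits pericytes through PDGFRB, was at 54.9, 33.8 and 21.9 CPM in 15C4 and at 45.2, 31.0 and 3.43 CPM in IgG. Relative to Cdh5 it was 109, 27.2 and 22.6 per 1000 in 15C4 and 72.5, 25.8 and 74.1 in IgG. The values overlapped on both scales, with a difference of the log2 ratios of -0.36 (two-sided exact permutation p = 0.9, n = 3 each). Platelets also hold PDGF-B. The 5 platelet markers, led by Itga2b, summed to at most 1.37 CPM, Ppbp had 0 counts in all libraries, and the part of platelet RNA in the Pdgfb level was not tested. Pdgfrb was at 4.52, 5.82 and 0.156 CPM in 15C4 and 2.51, 1.76 and 0 CPM in IgG. The sum of 10 pericyte and smooth muscle genes, led by Abcc9, ranged from 10.5 CPM in IgG 3 to 103 CPM in IgG 2.

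Inhbb (chromosome 1, 119415465 to 119422248) encodes the beta B subunit of activins and inhibins. It was at 429, 118 and 213 CPM in 15C4 and at 98.9, 214 and 24.4 CPM in IgG, with 15C4 1 the highest library and IgG 3 the lowest, and the groups overlapped. Per 1000 Cdh5 counts it stood at 851, 94.8 and 220 in 15C4 and 159, 178 and 528 in IgG (difference of the log2 ratios 0.081, two-sided exact permutation p = 1, n = 3 each). Inha, the alpha subunit that turns a beta subunit into inhibin, had 0 counts in the 15C4 libraries and was at 1.55, 6.22 and 0.429 CPM in IgG, too low to be tested. Inhba had 0.193 CPM in IgG 1 and 0 counts elsewhere, and Fst, whose product binds activin, had 0 counts throughout. Of the activin receptors, Acvr2a lay between 31.1 and 80.6 CPM in every library, while Acvr1b did not exceed 0.153 CPM.

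Esm1 (chromosome 13, 113209659 to 113218098), which encodes the secreted proteoglycan endocan, was at 168, 622 and 558 CPM in 15C4 and at 341, 241 and 15.7 CPM in IgG. 15C4 2 and 3 were the highest libraries, but 15C4 1 lay below IgG 1 and IgG 2. On the Cdh5 scale the range narrowed to 332, 502 and 575 per 1000 in 15C4 and 547, 201 and 339 in IgG, a difference of the log2 ratios of 0.45 (two-sided exact permutation p = 0.5, n = 3 each).

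Kcne3 (chromosome 7, 100176502 to 100184869), a regulatory subunit of voltage-gated potassium channels, was at 343, 280 and 374 CPM in 15C4 and at 124, 162 and 52.1 CPM in IgG. It was the 1 tested member whose groups did not overlap, against 2.88% of the 11144 tested genes that were likewise higher in every 15C4 library. No member was lower in every 15C4 library, against 6.64% of tested genes, and 9.52% did not overlap in either direction. The exact permutation p of Kcne3 in CPM was 0.1, two-sided, which is as low as 3 against 3 can go. Any gene whose groups do not overlap gets this p, so it adds nothing to the separation. Relative to Cdh5 this separation was absent: the ratios were 679, 226 and 385 per 1000 in 15C4 and 199, 135 and 1126 in IgG, with IgG 3 the highest of all. The log2 ratios differed by 0.32 (two-sided exact permutation p = 0.7, n = 3 each). Kcnq1, a pore-forming partner of KCNE subunits, was at 16.8, 10.9 and 6.73 CPM in 15C4 and 5.22, 12.5 and 0.857 CPM in IgG.

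**Figure D2:**
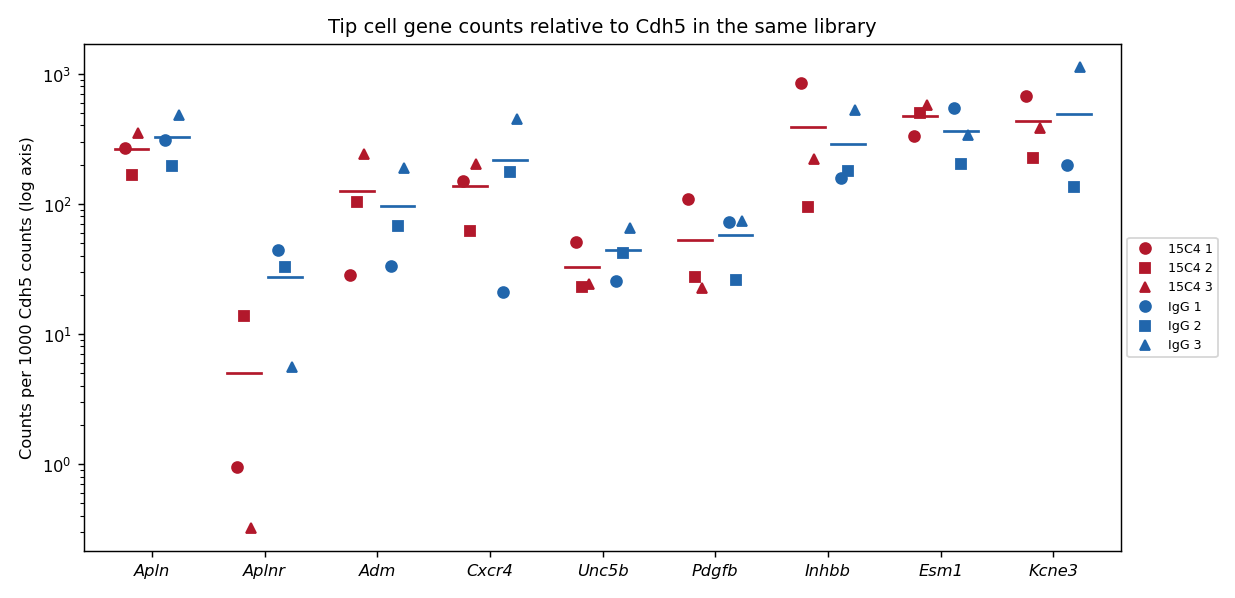
Counts per 1000 Cdh5 counts of the same library on a log axis for the 9 tip cell genes with enough counts to be tested, with 15C4 libraries in red and IgG libraries in blue and group means as bars. No gene separates the groups on this scale, and the IgG 3 values are the highest of the 6 for Apln, Cxcr4, Unc5b and Kcne3.

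Scaling to Cdh5 reduced the spread over the 6 libraries for 8 of the 9 tested members. The SD of the log2 level went from 1.95 in CPM to 0.58 as a ratio for Esm1, from 1.39 to 0.56 for Apln and from 1.40 to 0.64 for Unc5b. It went from 3.48 to 2.72 for Aplnr and from 1.64 to 1.54 for Cxcr4, and for Kcne3 it was larger as a ratio, 1.16 against 1.08. Division by a level shared between genes can itself make them more alike, and these SDs are a description over 6 libraries that mix both groups.

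Between 15C4 and IgG, 8 of the 9 tested members were fitted above 0 and Aplnr below. Their median log2 fold change was 0.76, against 0.010 for all 11144 tested genes, of which 50.7% were fitted above 0. The pan-endothelial genes were fitted above 0 in 19 of 22 cases, with a median of 0.41 and none passing, and Cdh5 itself was at 0.67 (SE 0.89). None of the 9 passed edgeR's quasi-likelihood test (Benjamini-Hochberg adjusted p = 0.9997 for each). The same test called 0% of all genes, with 288 genes, or 2.58%, at an unadjusted p under 0.05 (1.26% higher and 1.33% lower in 15C4). Kcne3 was the 1 member among them. The largest differences above 0 were those of Adm (1.94, SE 1.08, unadjusted p = 0.107), Kcne3 (1.66, SE 0.45, unadjusted p = 0.0056), Esm1 (1.31, SE 0.93) and Inhbb (1.24, SE 0.73). Apln (0.76, SE 0.76), Cxcr4 (0.64, SE 0.99), Pdgfb (0.53, SE 0.88) and Unc5b (0.27, SE 0.94) had SEs at or above the size of their log2 fold change, and so did Aplnr (-1.76, SE 1.81). DESeq2 called 23 genes (0.21%) and limma-voom 0 (0%), and no member was among the calls. DESeq2 had 455 genes (4.15%) at an unadjusted p under 0.05, and of the members these held Kcne3 and Adm. The 461 genes (4.14%) of limma-voom at the same threshold held Kcne3 and Esm1. By DESeq2 the smallest adjusted p of a member was 0.154, for Kcne3.

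These values leaned on single libraries. Without IgG 3, the library with little Cdh5, the median was 0.27 and Unc5b turned to -0.23, while Kcne3 was at 1.34 (SE 0.38), Adm at 1.496, Esm1 at 0.78, Inhbb at 0.79, Apln at 0.27 and Pdgfb at 0.036. Without IgG 2 the median was 1.54, Cxcr4 was at 2.88 and Adm at 3.25. Without 15C4 3 Adm was at 1.07. Cxcr4 turned to -0.047 without 15C4 3, and without 15C4 2, which held 335 of the 341 counts of Aplnr in 15C4, the log2 fold change of Aplnr was -5.65.

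**Figure D3:**
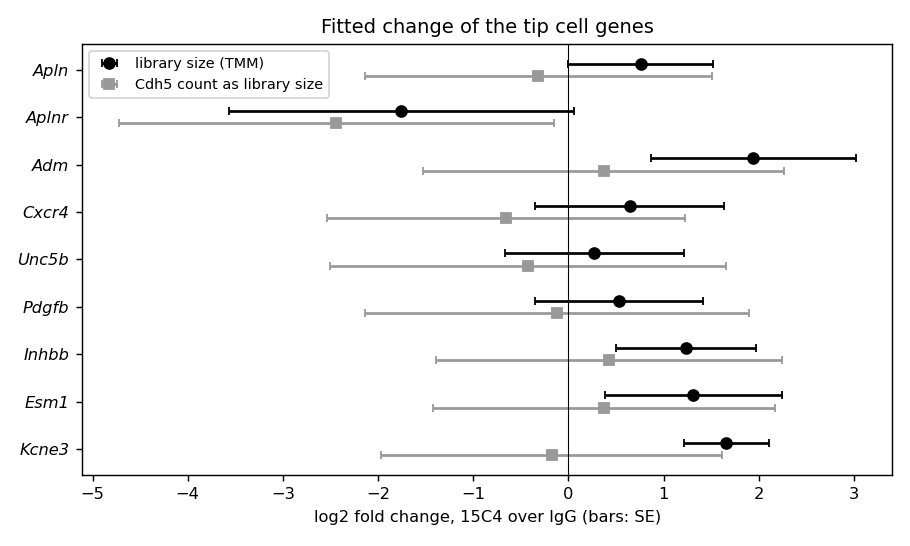
Fitted log2 fold change of 15C4 over IgG for the 9 tested tip cell genes, with bars of 1 SE, from edgeR with TMM-scaled library sizes (black circles) and with the Cdh5 count as library size (grey squares). On the Cdh5 scale the estimates lie between -0.66 and 0.43 for 8 members and at -2.44 for Aplnr, and every SE is wider.

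With the Cdh5 count of each library as its size, 3 of the 9 members were fitted above 0 and 6 below, with a median of -0.18. The median of all 11144 tested genes was -2.59 on this scale, and 4.78% of them were fitted above 0. The Cdh5 count used as size was 540 in IgG 3, against 3227 to 24261 in the other libraries. The melanocyte genes had a median of -2.48 on this scale. No member passed (edgeR quasi-likelihood test, adjusted p between 0.42 for Aplnr and 0.96 for Pdgfb), against 2 genes (0.0179%) in all, 3830403N18Rik and Kcnn4, which were lower in 15C4 and are named because they were the only calls. Unadjusted, 660 genes (5.92%) and no member had a p under 0.05. The ratios of the groups overlapped for all 9 members, while 6.68% of tested genes did not overlap, 0.126% higher and 6.55% lower in 15C4. Without IgG 3, Kcne3 was at 1.36 (SE 0.90) on the Cdh5 scale, against -0.18 (SE 1.79) with it.

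In the authors' deposited table, the log2 fold change of Kcne3 was 1.72 as 15C4 over IgG (p = 0.162, adjusted p = 0.621, by the authors' test). The DESeq2 run here gave Kcne3 a similar 1.69 (SE 0.50) on the same counts, but a far smaller unadjusted p of 0.00066. The reason for this gap was not tested. The authors' deposited table gave Adm at 2.01 (adjusted p = 0.53) and Aplnr at -1.73 (adjusted p = 0.714). Its smallest p for a member was that of Ramp3, 0.0493 (adjusted p = 0.366 in the authors' deposited table).

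Of 25 other genes linked to tip cells and sprouting, all were tested, 19 were fitted above 0 and 6 below, with a median log2 fold change of 0.40, and none passed. Angpt2, a ligand of the TIE2 receptor that loosens vessels, was at 262, 545 and 643 CPM in 15C4 and 382, 403 and 81.3 CPM in IgG (fitted at 0.88, SE 0.62). Dll4, the Notch ligand of tip cells, was at 31.5, 95.9 and 51.0 CPM in 15C4 and 59.1, 72.2 and 16.4 CPM in IgG (0.39, SE 0.69). Kdr, the main VEGF receptor, was at 68.9, 251 and 61.5 CPM in 15C4 and 153, 126 and 9.43 CPM in IgG (0.51, SE 0.93). All 3 overlapped between the groups. Lama4 and Ankrd37 were named for the smallest unadjusted p of this list, and 9.52% of all tested genes did not overlap. Lama4, a laminin subunit of the vessel wall, was at 228, 189 and 175 CPM in 15C4 and 154, 160 and 112 CPM in IgG, with no overlap (0.56, SE 0.32). Ankrd37, a hypoxia-induced gene, was at 42.9, 49.7 and 22.2 CPM in 15C4 and 82.3, 125 and 60.0 CPM in IgG, with no overlap in the other direction (-1.14, SE 0.51).

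Genes of stalk cells and Notch signalling were fitted above 0 in 8 of 10 tested cases of 12 listed, with a median of 0.48 and none passing. Hey1, a Notch target, was at 81.3, 76.3 and 42.1 CPM in 15C4 and 20.7, 27.9 and 7.37 CPM in IgG (1.91, SE 0.64), and Jag1, a Notch ligand, at 83.7, 70.5 and 63.5 against 30.3, 58.2 and 32.8 CPM (0.93, SE 0.48). Neither pair of groups overlapped, as with 9.52% of all tested genes. Both genes were named for the smallest unadjusted p of this list. Of the 34 ligands, receptors and partners of the members, 16 had enough counts to be tested, 9 of them above and 7 below 0, with a median of 0.20 and none passing. 8 of the 34 had 0 counts in every library.

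**Figure D4:**
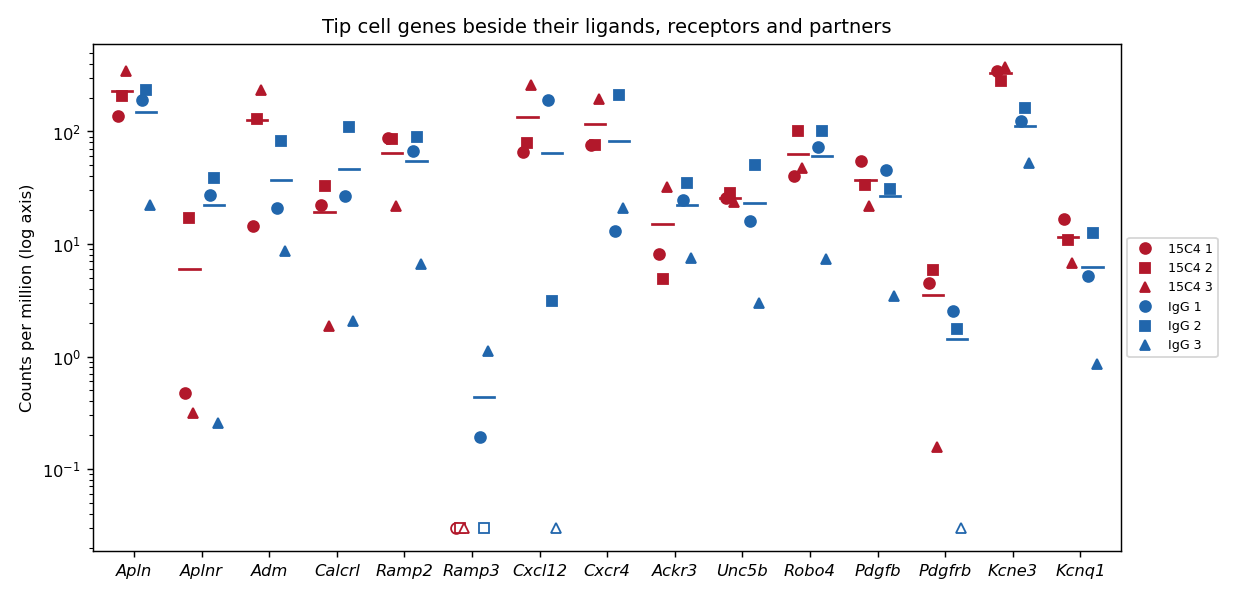
CPM on a log axis for tip cell genes beside their ligands, receptors and channel partners, with 15C4 libraries in red, IgG libraries in blue and group means as bars. Open symbols at 0.03 CPM stand for 0 counts. In 15C4 3, Aplnr, Calcrl and Pdgfrb are at 0.313, 1.88 and 0.156 CPM, while Apln, Adm and Kcne3 have their highest values. This library also had the fewest genes detected (10413), and whether low values there reflect lost transcripts was not tested.

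Hypoxia genes were measured beside the members because Adm and Ankrd37 are known targets of the response. The 12 genes summed to 3439, 3680 and 1683 CPM in 15C4 and 4279, 6605 and 6145 CPM in IgG, with no overlap. Among single tested genes, 9.52% did not overlap. The sum is weighted to its most abundant genes, Ero1l and Bnip3, with means of 1170 and 908 CPM over the 6 libraries. Whether the sum separates the groups without them was not tested. The list was chosen with earlier results known, so its sum is given without a p-value. Of the 12, 2 were fitted above and 10 below 0, with a median of -0.81 and none passing. Ero1l, an oxidase of the endoplasmic reticulum, was at 475, 900.5 and 197 CPM in 15C4 and 1135, 1901 and 2412 CPM in IgG (-1.71, SE 0.54). P4ha2, a collagen prolyl hydroxylase, was at 55.1, 31.8 and 53.7 CPM in 15C4 and 89.1, 163 and 80.8 CPM in IgG (-1.15, SE 0.48). Vegfa, the growth factor that induces tip cells, was at 416, 222 and 76.2 CPM in 15C4 and 427, 747 and 321 CPM in IgG (-1.03, SE 0.56), and its groups overlapped. 15C4 3 thus had the lowest hypoxia sum and Vegfa level and the highest Adm and Apln levels of all libraries. The list did not go 1 way there, as Slc2a1 had its highest CPM in the same library. A link between the hypoxia genes and the members was not tested.

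Markers of other cell types were uneven. The sum of 7 lymphatic genes, led by Mmrn1, was 1168 CPM in IgG 2, where Aplnr, Cxcr4 and Unc5b were at their highest, against 11.6 to 63.8 CPM elsewhere. Ccl21a had 0 counts in all libraries. The 7 fibroblast genes, led by Lum, summed to 153 CPM in 15C4 3, 94.5 CPM in IgG 1 and at most 4.56 CPM elsewhere. In 15C4 3 Lum held 966 counts, while Col1a1, Col1a2, Col3a1 and Dcn held 1, 3, 5 and 1. In IgG 1 Lum held 116 counts, and the same genes held 63, 126, 132 and 44. The sum of 13 macrophage and monocyte genes was 201 CPM in IgG 1, mostly from Ptprc, Tyrobp and Fcer1g, which NK cells also express, and 0.469 to 75.3 CPM elsewhere. The macrophage genes C1qc and Mrc1 had 385 and 265 counts in 15C4 2 and at most 1 count in each other library, and Csf1r had at most 6 counts in any. The part of these cells in the member levels was not tested.

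**Figure D5:**
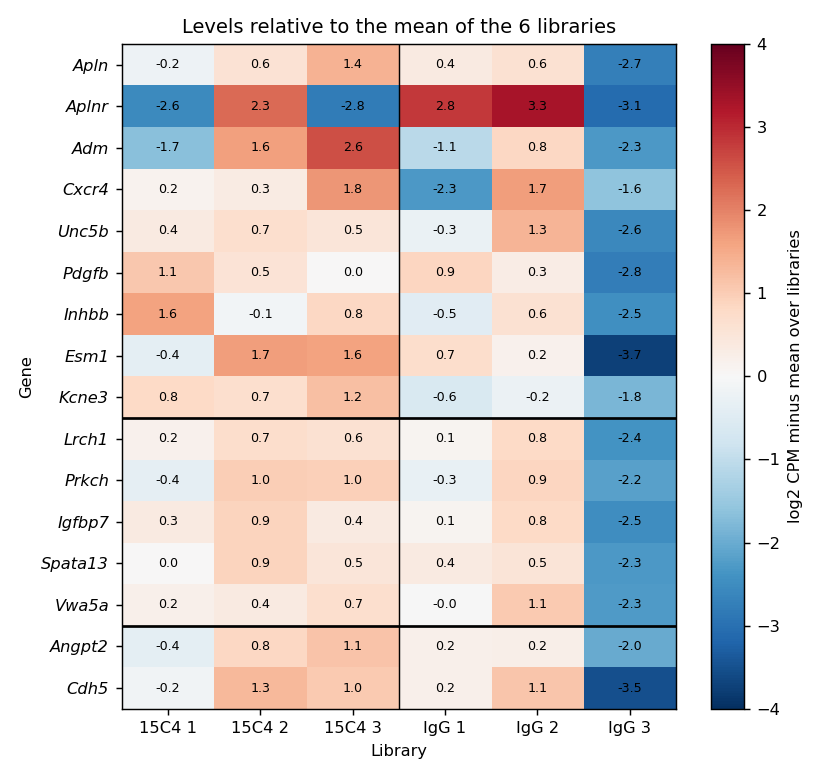
Log2 CPM of each gene minus its mean over the 6 libraries, with colour and printed values, for the 9 tested tip cell genes (top), the 5 genes with the most similar profile (middle), and Angpt2 and Cdh5 (bottom). All rows are negative in IgG 3, and Aplnr is also far below its mean in 15C4 1 and 15C4 3.

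The genes whose levels followed the mean profile of the 9 members most closely were Lrch1, Prkch, Igfbp7, Spata13 and Vwa5a. Likeness was the root mean square difference of log2 CPM, each gene centred over the 6 libraries, and it was 0.19 for Lrch1, 0.25 for Prkch, 0.26 for Igfbp7, 0.28 for Spata13 and 0.29 for Vwa5a. Among 11135 other tested genes, Angpt2 ranked 23, Pecam1 33, Cdh5 34, Dll4 71 and Kdr 157. The mean profile was -0.088, 0.91 and 0.79 in 15C4 1, 2 and 3 and 0.0033, 0.95 and -2.57 in IgG 1, 2 and 3. Its largest deviation was in IgG 3, in which 8 of the 9 members, and 13.1% of all tested genes, had their lowest CPM.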

How the data were processed

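The authors deposited whole-number counts per gene symbol for each library. The submitters' processing notes name the tools STAR 2.5b, featureCounts, fastp and DESeq2 and the builds mm9 and mm10. The roles of the builds, the annotation and the strand setting: not given in the sources used here. Per the labels' protocols, cDNA was amplified by PCR. The deposited series table repeats these counts for 24394 symbols spelled alike and adds size-factor-normalised counts rounded to whole numbers, a score here that was not analysed. Per the file headers it also gives the authors' log2 fold change, IgG over 15C4 by its sign, and their p-value and adjusted p-value.

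Counts were tested with edgeR 4.0.16 (R 4.3.3), with TMM scaling and genes kept by filterByExpr (minimum count 10, total 15), treatment as the only term, fold changes as 15C4 over IgG and an adjusted p of 0.05. SE is the fold change over the root of the test's F. The fit was repeated with the Cdh5 count as library size. Ratios to Cdh5 took a pseudocount of 0.5 on the log2 scale, and a permutation test was run for each of the 9 tested members, with no adjustment over this list. limma 3.58.1 and DESeq2 1.42.0 were alternatives. edgeR, DESeq2 and limma-voom were tested on simulated data. Exon lengths and coordinates are from GENCODE M21 on GRCm38, so per-length levels rest on an annotation that may differ from the authors'. No member shares exon bases with another gene in the counts except Ramp3, with 101 bases opposite Gm11978.

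The members and lists were chosen with earlier results of these data known. Named genes are the members, Cdh5, chosen partners and tip cell genes, the 2 or 3 genes with the smallest unadjusted p of a list, and the most abundant marker of each cell type. Genes named beyond this rule (such as Apela, Inha, Fst, Pecam1, C1qc, Mrc1, Csf1r, Tyrobp and Fcer1g) were chosen after their values were seen.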

Additional observations from a re-analysis of the deposited data

How the results depend on the processing

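The 9 tested members passed the test under none of the 15 alternatives to the edgeR fit or the 9 on the Cdh5 scale; DESeq2 gave no p for Cxcr4. The number of genes called by edgeR, 0, was 1 with no filter, 23 with DESeq2, 65 with DESeq2 and no low-count filter (chosen after seeing the data), 4 with pan-endothelial counts as scale, and 0 to 0 with single libraries left out. With Cdh5 as scale the number of calls, 2, was 0 with a replicate block, 4 with Pecam1 counts as scale, and 0 to 5 with single libraries left out (5 without IgG 2, 0 without IgG 1 or any 15C4 library, and 2 other genes, Lyve1 and Scn3a, without IgG 3). With pan-endothelial counts as scale Unc5b turned to -0.14. On the Cdh5 scale a replicate block gave 0.37 for Kcne3 and -0.041 for Inhbb, and Pecam1 as scale gave 0.37 for Apln, 0.15 for Cxcr4, 0.55 for Kcne3 and 0.013 for Pdgfb. The ratio of Apln turned to 0.068 with the pan-endothelial sum and to 0.0087 with Pecam1 as denominator.

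With single libraries left out, the log2 fold change ranged from -0.23 to 1.54 for Unc5b and from -0.047 to 2.88 for Cxcr4, the 2 members that changed sign. It ranged from 0.036 to 1.18 for Pdgfb, 0.27 to 1.22 for Apln, 0.75 to 2.08 for Inhbb, 0.78 to 1.97 for Esm1, 1.34 to 1.998 for Kcne3, 1.07 to 3.25 for Adm and -5.65 to -1.098 for Aplnr. On the Cdh5 scale it ranged from -0.58 to 0.073 for Apln, -1.19 to 0.47 for Cxcr4, -0.67 to 1.36 for Kcne3, -0.54 to 1.30 for Adm, -1.20 to 0.24 for Pdgfb and -0.87 to 1.20 for Inhbb. The median log2 ratio to Cdh5, 0.040, ranged from -0.34 to 0.47, below 0 without 15C4 1, 15C4 3, IgG 1 or IgG 2, and the ratio from -0.61 to 0.045 for Apln, -1.21 to 1.001 for Cxcr4, -0.28 to 1.25 for Kcne3, -0.47 to 1.07 for Adm, -1.07 to 0.066 for Pdgfb and -0.77 to 0.81 for Inhbb. The cause was not tested. The median fold change of the members stayed above 0, from 0.27 to 1.54.

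Same-numbered libraries correlated at -0.036, 0.063 and 0.10 in their deviations from the group means, and the other pairs between -0.10 and 0.068. With 3 libraries per group this cannot tell whether replicate numbers pair the libraries. The replicate block left the count of edgeR calls at 0, as in the main fit. The median log2 fold change of the members was 1.47 with the block, against 0.76 in the main fit. Aplnr and Ramp3 rest on few counts in several libraries, which limits what their levels show.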
